A study of Homo sapiens with 12 samples.

Results

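The 10 genes described here code for feedback inhibitors of the mitogen-activated protein (MAP) kinase pathways: the dual-specificity phosphatases DUSP1, DUSP4, DUSP5, DUSP6, DUSP10 and DUSP16, the Sprouty proteins SPRY2 and SPRY4, and the Sprouty-related proteins SPRED1 and SPRED2. They were chosen by gene symbol, with earlier results of these data known. All 10 were found among the 28265 genes of the expression table. Under the same symbols, 46 of the 46178 regions of the m6A table were found. The cells were HepG2, an established human liver tumour line, either treated with toosendanin, a triterpenoid of Melia toosendan known for liver toxicity, or labelled as control. N6-methyladenosine (m6A), a mark on mRNA, was measured by sequencing RNA captured with an antibody (IP) beside uncaptured RNA (input). Each condition had 3 IP and 3 input libraries, which makes 12 libraries. Dose and time of treatment are not in the labels, and what the control cells received is not stated.

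MAP kinase signalling runs from growth factor receptors through RAS, RAF and MEK to the kinase ERK, and parallel branches end in the stress kinases p38 and JNK. The phosphatases of this family remove the activating phosphates from ERK, p38 or JNK, while Sprouty and Spred proteins act upstream, between the receptors and RAF. Several of these inhibitors are themselves transcribed in response to the pathway they restrain, so that their transcripts are often read as a record of its recent activity.

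Only values pooled over libraries were used: the authors' deposited expression comparison, and read counts that they had added up within each condition. Over all regions the sums came to 29094328 for toosendanin IP, 24253006 for toosendanin input, 42316089 for control IP and 34131862 for control input. Levels per library were not analysed here, and the spread between libraries enters only through the standard errors of the authors' deposited expression comparison. The labels do not say whether libraries came from separate cultures, so those errors may be technical. All 9 hepatocyte markers had mean normalized counts between 5546 and 411979 in the authors' deposited table. Of 6 fibroblast markers 3 had a mean of 0 and the highest had 36.1, and of 4 endothelial markers 1 had a mean of 0 and the highest had 13.1 in the authors' deposited table. The leukocyte genes PTPRC and CD3E had a mean of 0 there, while CD68, a lysosomal protein of macrophages, had 1426 and LYZ, lysozyme, had 49191.

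Toosendanin raised 4 of the 6 phosphatase transcripts, lowered 1 and lowered 3 of the 4 Sprouty and Spred transcripts. At an adjusted p under 0.05 in the authors' deposited DESeq2 table, 8 of the 10 genes changed, 4 higher and 4 lower. Among all 16552 genes with an adjusted p in that table, 31.4% were called, 15.7% higher and 15.7% lower. The median log2 fold change of the 10 genes was -0.18, against -0.00023 for all genes tested, and the median size of change regardless of sign was 0.97, against 0.33. These are levels in bulk RNA, in which fewer cells of one kind and less RNA per cell cannot be told apart. Errors given with the deposited log2 fold changes are standard errors.

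DUSP1, a nuclear phosphatase that acts on p38, JNK and ERK and is known as an immediate early gene, had 1138 summed input reads after toosendanin, against 511 in control. Scaled to the totals of the sums, these are 46.9 RPM after toosendanin and 15.0 RPM in control, where RPM stands for reads per 1000000 reads of the sum. The authors' deposited DESeq2 table gave a log2 fold change of 1.70 ± 0.12, or 3.25-fold (adjusted p = 2.86e-45), and 141 genes of that table had a smaller p. DUSP5, a nuclear phosphatase selective for ERK, had 261 input reads after toosendanin and 184 in control, or 10.8 and 5.39 RPM. Its log2 fold change was 0.97 ± 0.20 in the authors' deposited DESeq2 table (adjusted p = 8.01e-06). A pseudogene, DUSP5P1, is listed separately with a mean normalized count of 46.9 against 337 for DUSP5 in the authors' deposited table. How reads common to both were assigned is not stated, so the value of DUSP5 is uncertain to that extent. DUSP4, also an inducible nuclear phosphatase, was barely counted: its single region had 0 input reads after toosendanin and 1 in control, and its mean normalized count was 9.19 in the authors' deposited table. The log2 fold change of DUSP4 in the authors' deposited DESeq2 table was -1.71 ± 1.55 (adjusted p = 0.456), an interval from -4.75 to 1.32 that holds large changes in both directions.

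DUSP6, the cytoplasmic phosphatase selective for ERK, moved against DUSP1 and DUSP5. It had 974 summed input reads after toosendanin and 3449 in control, or 40.2 and 101 RPM. In the authors' deposited DESeq2 table its log2 fold change was -1.37 ± 0.10, that is 2.58-fold lower (adjusted p = 2.24e-37). The 95% interval of that log2 fold change ran from -1.57 to -1.16, and that of DUSP1 from 1.47 to 1.93.

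The promoters of DUSP1 and DUSP6 are shown because these genes had the smallest p-values of the 10 and opposite signs. Each runs from 250 bases before to 50 bases after the start of the gene, read 5′ to 3′ on the strand of the gene (RefSeq, GRCh38.p14; DUSP1 at chr5:172771146-172771445, minus strand; DUSP6 at chr12:89352452-89352751, minus strand). Capitals mark TGACG, the core of the cAMP response element, on either strand.
DUSP1: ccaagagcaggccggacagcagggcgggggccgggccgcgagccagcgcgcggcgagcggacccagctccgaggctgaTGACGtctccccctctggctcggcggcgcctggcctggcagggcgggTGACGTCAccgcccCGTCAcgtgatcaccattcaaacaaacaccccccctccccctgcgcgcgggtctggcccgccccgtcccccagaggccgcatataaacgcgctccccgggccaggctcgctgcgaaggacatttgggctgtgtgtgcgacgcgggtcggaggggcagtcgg
DUSP6: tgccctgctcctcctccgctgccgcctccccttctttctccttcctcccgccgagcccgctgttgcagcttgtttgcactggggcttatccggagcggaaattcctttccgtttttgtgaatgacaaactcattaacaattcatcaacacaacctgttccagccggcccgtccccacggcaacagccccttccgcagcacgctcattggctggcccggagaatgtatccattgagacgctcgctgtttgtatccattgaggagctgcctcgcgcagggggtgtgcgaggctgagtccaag
The DUSP1 window held 4 matches to this core, which begin 172, 125, 122 and 111 bases before the start. Those at 125 and 122 overlap and together spell the whole element TGACGTCA. The DUSP6 window held 0 matches. Of 35116 promoter windows of the same length, 1.85% held TGACGTCA and 24.6% held TGACG on either strand. RefSeq windows were matched for 8 of the 10 genes, 12 windows in all, and not for DUSP4 or DUSP5. Of the 12, 5 held the core: 1 each of DUSP1, DUSP10, SPRED2, SPRY2 and SPRY4. DUSP10 and DUSP1 rose, SPRED2 and SPRY4 fell and SPRY2 was not called, so the core stood in windows of genes that moved both ways. Further motifs were searched on both strands. The AP-1 motif TGANTCA was in 1 of the 12 windows, that of SPRED2, and in 7.71% of all windows. The TATA box, TATAAA, was in 2 of the 12, those of DUSP1 and SPRED2, and in 11.5% of all windows. The ETS motif CCGGAAG (10.3% of all windows) and the CArG box of serum response factor (1.29%) were in 0 of the 12. A match is a string of letters and was not tested as a binding site. The motif search was not among the planned comparisons, and its relation to the expression changes was not tested.

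The phosphatases known to prefer the stress kinases were both higher. DUSP10, which acts on p38 and JNK, had 268 summed input reads after toosendanin and 90 in control, or 11.1 and 2.64 RPM. Its log2 fold change of 2.16 ± 0.32 in the authors' deposited DESeq2 table (adjusted p = 4.19e-10) was the largest rise of the 10 genes, at 4.45-fold, and also carried the widest error of the 8 genes called. DUSP16, which acts mainly on JNK and p38, had 4105 input reads after toosendanin and 4401 in control, or 169 and 129 RPM. It rose by 0.37 ± 0.06, or 1.29-fold, in the authors' deposited DESeq2 table (adjusted p = 3.59e-08).

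The Sprouty and Spred transcripts fell or were not called. SPRY4, which restrains RAS and RAF activation below receptors, had 482 summed input reads after toosendanin and 1283 in control, or 19.9 and 37.6 RPM. Its log2 fold change was -0.98 ± 0.14 in the authors' deposited DESeq2 table, or 1.97-fold lower (adjusted p = 9.11e-11). Overlapping transcripts are listed under their own names, SPRY4-AS1 at -0.96 ± 0.67 and SPRY4-IT1 at 0.02 ± 0.81 in the authors' deposited table, with mean normalized counts of 24.2 and 11.3 against 1044 for SPRY4. SPRY2, its paralogue, had 287 input reads after toosendanin and 453 in control, or 11.8 and 13.3 RPM. The log2 fold change of SPRY2 was -0.13 ± 0.17 in the authors' deposited DESeq2 table (adjusted p = 0.643), with an interval from -0.46 to 0.20.

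SPRED1 and SPRED2, membrane proteins that bring the RAS inactivator neurofibromin to RAS, were lower by small amounts. SPRED1 had 206 summed input reads after toosendanin and 321 in control, or 8.49 and 9.40 RPM, and a log2 fold change of -0.37 ± 0.12 in the authors' deposited DESeq2 table (adjusted p = 0.0101). SPRED2 had 1375 after toosendanin and 2290 in control, or 56.7 and 67.1 RPM, and stood at -0.23 ± 0.08 in the authors' deposited DESeq2 table (adjusted p = 0.0152). Both calls end at a threshold of 0.01. With a change of at least 2-fold asked for as well, 3 of the 8 genes remained: DUSP1, DUSP10 and DUSP6.

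**Figure D1:**
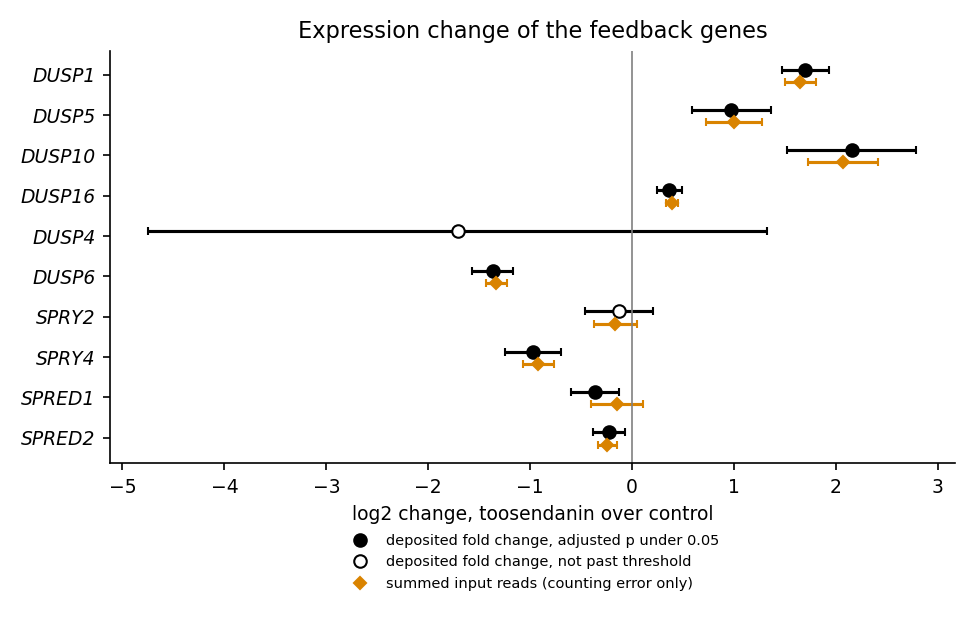
Log2 change after toosendanin over control (horizontal axis) for the 10 genes. Circles are the authors' deposited fold changes with 95% intervals from their standard errors (filled, adjusted p under 0.05), and diamonds are changes of the summed input reads with 95% intervals for counting error only. DUSP1, DUSP5, DUSP10 and DUSP16 lie right of 0, DUSP6, SPRY4, SPRED1 and SPRED2 left of it, and the interval of DUSP4 spans from -4.75 to 1.32.

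The summed input reads of the m6A table gave the same sign as the deposited fold change in 9 of the 9 genes in which they could be compared. DUSP4, with its 0 and 1 input reads, was left out. In 8 of the 9 genes, the log2 change of summed inputs and the authors' deposited log2 fold change differed by no more than 0.09. For DUSP1, for example, the summed inputs gave 1.65 ± 0.08 (counting error), and for DUSP6 they gave -1.33 ± 0.05. The exception was SPRED1, whose inputs gave -0.15 ± 0.13 against the deposited -0.37. The tables come from the same experiment and may share libraries, so this is a check of reading and sign and no second measurement.

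**Figure D2:**
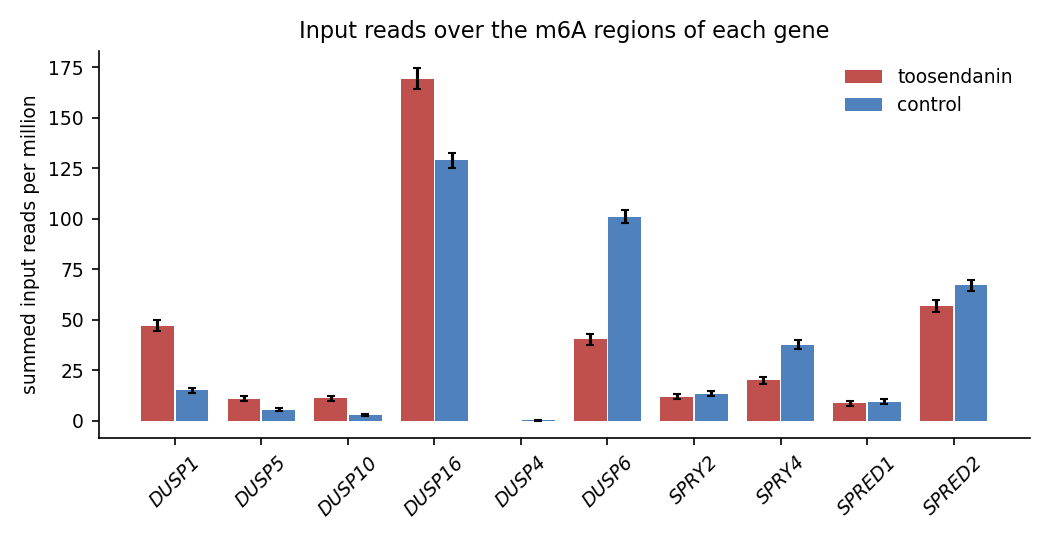
Summed input reads over the m6A regions of each gene in RPM (vertical axis), after toosendanin (left bar) and in control (right bar), with 95% intervals for counting error only. Bars are to be compared within a gene, since the covered lengths differ: DUSP1 shows 46.9 after toosendanin against 15.0 in control, and DUSP6 shows 40.2 against 101.

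For m6A, the share of called regions over these genes was near that of all regions. Of the 46 regions, 24 carried an FDR in the authors' deposited table, and 3 of those were called at an FDR under 0.05, 1 higher and 2 lower, or 12.5%. Among all 24688 regions with an FDR, 8.95% were called, 2.71% higher and 6.24% lower. The 3 called regions belong to DUSP16 and SPRED1, and 8 of the 10 genes had no called region, of which 2, DUSP4 and DUSP10, had no region with an FDR. The median log2 change of IP over input was -0.05 over the 24 regions and -0.05 over all regions with an FDR. The deposited m6A p-values hold counting error only, since they rest on sums, and spread between libraries would widen every interval given below. The deposited log2 change is not exactly the ratio of the printed counts. Its offset from that ratio had a median of -0.045 and lay mostly between -0.095 and -0.004. It therefore also differs from values scaled to the totals. The file gives no positions for the regions, so they are numbered in file order within a gene, and where in a transcript each lies is not known here.

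The largest called change was in SPRED1. Region 2 of SPRED1 had 84 IP and 64 input reads after toosendanin, against 239 IP and 70 input reads in control. Scaled to the totals, log2 IP over input was 0.13 ± 0.24 after toosendanin and 1.46 ± 0.20 in control (counting errors), and in control 1.03% of all regions with at least 10 reads in each sum were as enriched or more. The authors' deposited table gave a log2 change of -1.38 (counting error 0.31, FDR = 0.000328). Reads of the IP were lower after toosendanin by -0.97 ± 0.18 on the log2 scale, while input reads of the region were at 0.36 ± 0.25. The input over region 1 of SPRED1 stood at -0.67 ± 0.21, also with counting error only. These are the highest and lowest input changes of its 5 regions, and their difference was not tested. Region 4 of SPRED1 had 21 IP and 21 input reads after toosendanin, against 54 and 27 in control, and its log2 change of -1.01 was not called in the authors' deposited table (FDR = 0.278). The other 3 regions of SPRED1 lay between -0.02 and 0.30 in the authors' deposited table and carried no FDR.

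DUSP16, the best covered of the 10 genes, held called regions of opposite sign. Region 2, with 2961 IP and 1682 input reads after toosendanin and 3415 IP and 1751 input reads in control, stood at -0.19 in the authors' deposited table (counting error 0.06, FDR = 0.0226). Region 5, with 276 IP and 288 input reads after toosendanin and 211 IP and 317 input reads in control, stood at 0.51 in the authors' deposited table (counting error 0.18, FDR = 0.0427). Log2 IP over input of region 2 lay above the level of the totals in both conditions. It was 0.55 ± 0.04 after toosendanin and 0.65 ± 0.04 in control. Region 5 lay below that level in both, at -0.32 ± 0.12 after toosendanin and -0.90 ± 0.13 in control. The level is that over all listed regions and not that of RNA without m6A. The other 4 regions of DUSP16 ran from -0.29 to 0.36 in the authors' deposited table without a call. Neither DUSP16 call is stable: that of region 2 ends when the log2 changes are scaled to the totals of the sums (-0.10, FDR = 0.342), and that of region 5 when the FDR is taken over all regions with a p-value (0.0716).

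The statistic of all regions was 1.53 times as wide as counting error alone gives, a factor that may also hold real m6A changes. Widened by that factor and adjusted anew (Benjamini-Hochberg), 0 of the 24 regions with an FDR were called, with an FDR of 0.146 for region 2 of SPRED1, against 6 regions of the 46 at an unadjusted deposited p under 0.05. Of these 6, the 3 that were not called stood at -0.49 in DUSP5 (region 1), -0.92 in DUSP10 (region 3, no FDR) and -0.79 in DUSP6 (region 2) in the authors' deposited table.

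DUSP1 and DUSP6, whose expression changed with the smallest p-values, had no called m6A region. For DUSP10, with the largest rise in expression, no region carried an FDR, so none could be called. The most read region of DUSP1 had 645 IP and 825 input reads after toosendanin, against 275 IP and 395 input reads in control, and its value in the authors' deposited table was 0.07, with a 95% counting interval from -0.20 to 0.34. That of DUSP6 had 680 IP and 387 input reads after toosendanin, against 2385 IP and 1438 input reads in control, and its value in the authors' deposited table was 0.02, with an interval from -0.18 to 0.23. Scaled to the totals of the sums, the values of these regions were 0.21 for DUSP1 and 0.13 for DUSP6. Summed over regions, IP reads of DUSP1 were 1.85 ± 0.08 higher on the log2 scale and its input reads 1.65 ± 0.08 higher. For DUSP6 the values were -1.22 ± 0.05 in IP and -1.33 ± 0.05 in input, and for SPRY4 -0.93 ± 0.07 in IP and -0.92 ± 0.08 in input. In 3 genes the IP change stood below the input change by more than in SPRY4: DUSP10 at 1.72 ± 0.13 in IP and 2.07 ± 0.18 in input, DUSP5 at 0.62 ± 0.12 in IP and 0.997 ± 0.14 in input, and SPRED1 at -0.61 ± 0.12 in IP and -0.15 ± 0.13 in input. The differences of IP minus input, with counting errors, were -0.35 ± 0.22 for DUSP10, -0.38 ± 0.18 for DUSP5 and -0.46 ± 0.18 for SPRED1. They were positive for DUSP1 at 0.21 ± 0.11, SPRY2 at 0.12 ± 0.15, DUSP6 at 0.11 ± 0.07 and SPRED2 at 0.10 ± 0.07. Those of DUSP16 and SPRY4 were -0.004 ± 0.04 and -0.01 ± 0.10. The sign of the IP change was that of the input change in 9 of the 9 genes compared. For SPRY2 that sign is uncertain, at -0.04 ± 0.10 in IP and -0.17 ± 0.11 in input. The share with the same sign over all genes was not counted. The intervals of 27 of the 46 regions excluded a 2-fold change of IP over input in either direction. Those of the remaining 19 did not, among them the called region 2 of SPRED1, all 5 regions of DUSP10 and the region of DUSP4.

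**Figure D3:**
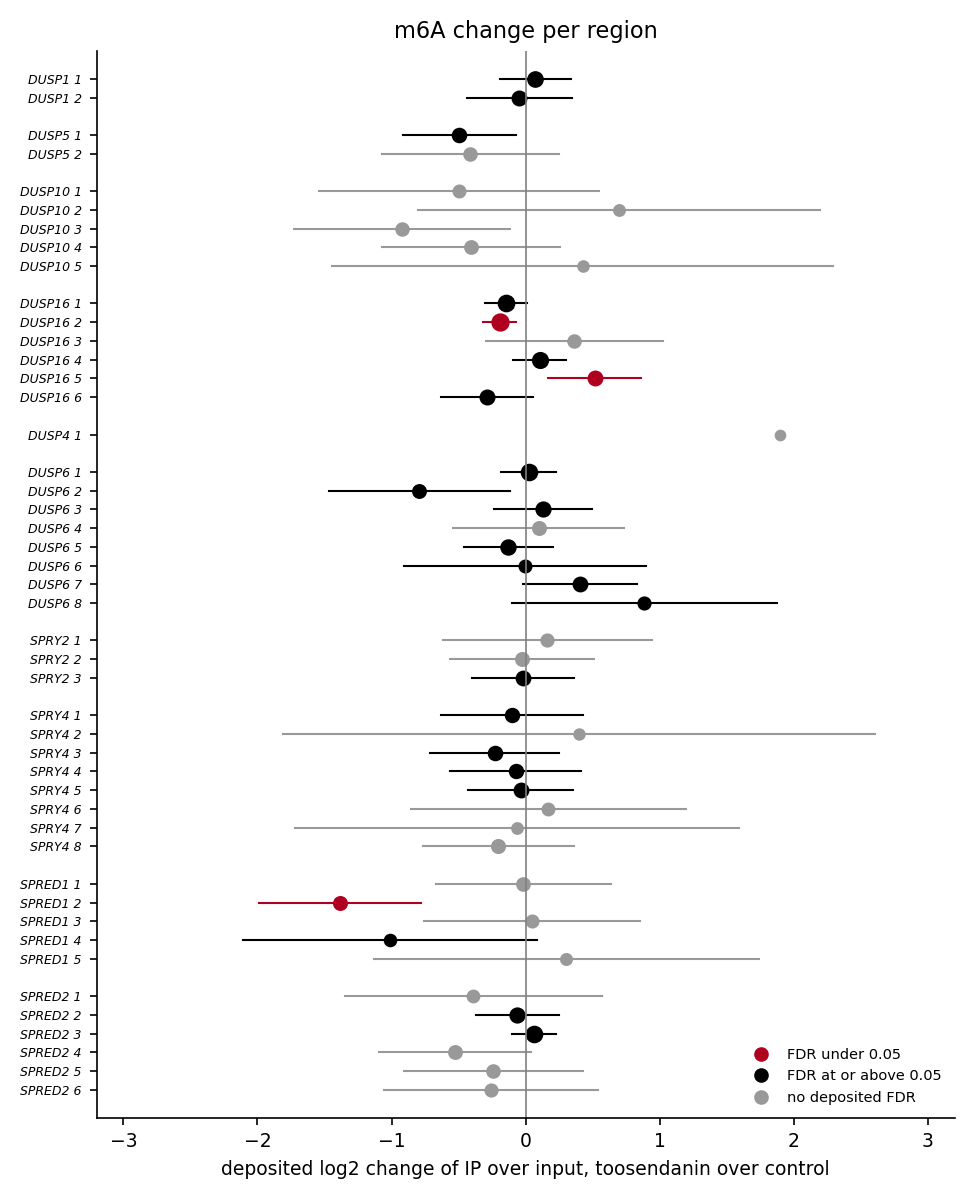
Deposited log2 change of IP over input, toosendanin over control (horizontal axis), for the 46 regions, with 95% intervals for counting error only and larger dots for more reads. Dark red marks the 3 called regions, black those with an FDR at or above 0.05 and grey those without a deposited FDR. DUSP4 has no interval because its input held 0 reads after toosendanin.

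The remaining genes had no called region, and the most read region of each is given here. For DUSP5 this was region 1, with 232 IP and 184 input reads after toosendanin and 221 IP and 129 input reads in control, at -0.49 in the authors' deposited table (interval -0.91 to -0.07, FDR = 0.135). The other region of DUSP5 stood at -0.41 in the authors' deposited table, so both leaned the same way without a call. For DUSP10 it was region 4, with 162 IP and 118 input reads after toosendanin and 68 IP and 38 input reads in control, at -0.41 in the authors' deposited table (interval -1.07 to 0.26, no FDR). Its 5 regions ran from -0.92 to 0.70 there, none with an FDR, and held 52 to 386 reads each over the 4 sums. The single region of DUSP4 had 14 IP reads after toosendanin and 7 in control, too few over inputs of 0 and 1 for a ratio.

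Sprouty and Spred regions outside SPRED1 stayed close to 0 where they were well read. Region 3 of SPRY2 had 240 IP and 148 input reads after toosendanin and 357 IP and 228 input reads in control, and stood at -0.02 in the authors' deposited table (interval -0.40 to 0.36). Region 5 of SPRY4 had 137 IP and 153 input reads after toosendanin and 349 IP and 392 input reads in control, and stood at -0.04 in the authors' deposited table (interval -0.43 to 0.36). The 8 regions of SPRY4 ran from -0.23 to 0.40 in the authors' deposited table, while both its IP and its input reads were lower after toosendanin. Region 3 of SPRED2 had 1054 IP and 885 input reads after toosendanin and 1611 IP and 1485 input reads in control, and stood at 0.06 in the authors' deposited table (interval -0.10 to 0.23). Of the 6 regions of SPRED2, the lowest was region 4 at -0.53 in the authors' deposited table, with an interval from -1.10 to 0.04.

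Regions of one gene differed in how strongly they were enriched in the IP. Of the 41 regions with at least 10 reads in each sum, 16 after toosendanin and 16 in control had IP over input above the level of the totals, and 13 did so in both. The share in control was 39.0%, against 43.8% of all regions with at least 10 reads in each sum. The highest control values among the 41 were those of SPRED1 region 2 at 1.46 ± 0.20, DUSP10 region 1 at 1.24 ± 0.46 and DUSP10 region 3 at 1.12 ± 0.35. Within DUSP1, region 2 lay above the level of the totals, at 0.47 ± 0.10 after toosendanin and 0.43 ± 0.17 in control. Region 1 of DUSP1 lay below it, at -0.62 ± 0.08 after toosendanin and -0.83 ± 0.11 in control. Within DUSP6, region 1, which held most of the reads of the gene, was at 0.55 ± 0.09 after toosendanin and 0.42 ± 0.05 in control. Region 2 of DUSP6 was the lowest of its 8 regions, at -1.60 ± 0.30 after toosendanin and -0.95 ± 0.17 in control.

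**Figure D4:**
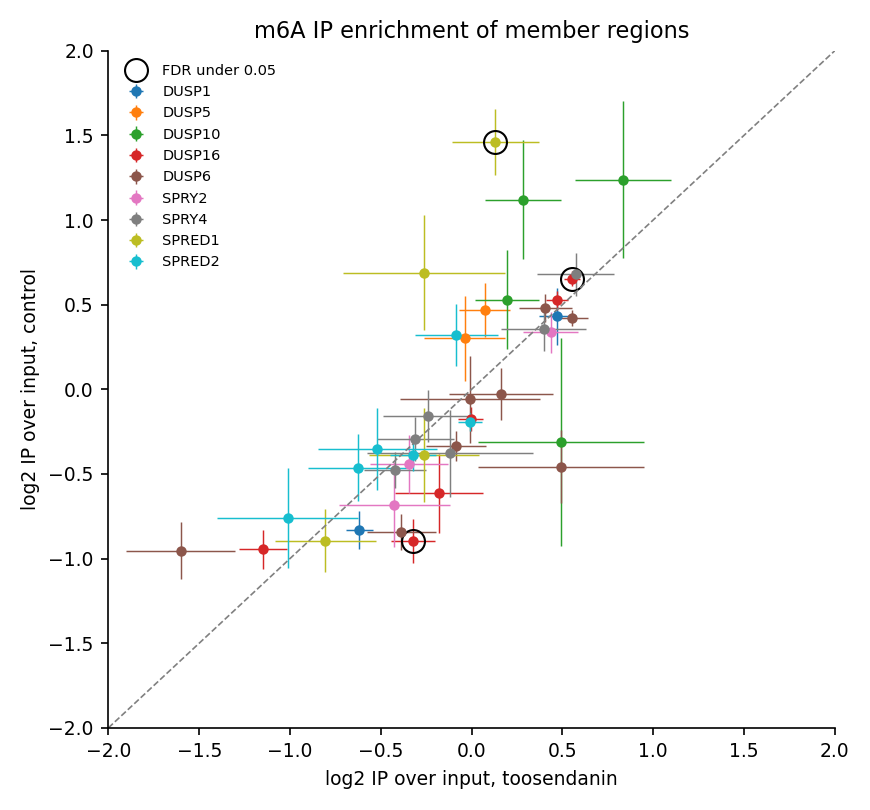
Log2 IP over input, scaled to the totals of the sums, after toosendanin (horizontal axis) and in control (vertical axis) for the 41 regions with at least 10 reads in each sum. Bars are counting standard errors, the dashed line marks equal values, and rings mark the 3 called regions. SPRED1 region 2 stands farthest above the line among the ringed points, at 0.13 after toosendanin and 1.46 in control.

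Around these 10 genes, the called ligands of the pathway rose, while its called receptors went both ways. Of 10 ligands, those of the EGF and FGF families and HGF, 5 had an adjusted p in the authors' deposited DESeq2 table, of which 3 rose and 0 fell. AREG, amphiregulin, was 2.26 ± 0.27 higher, HBEGF 1.16 ± 0.25 and FGF2 1.71 ± 0.58 higher in the authors' deposited table. The mean normalized count of FGF2 was only 25.3, against 176 for AREG and 153 for HBEGF. Of 9 receptor tyrosine kinases tested, 2 rose and 5 fell in the authors' deposited DESeq2 table, with FGFR4 at -0.64 ± 0.08, FGFR3 at -0.65 ± 0.09 and the insulin receptor INSR at 0.33 ± 0.06. These counts stand beside the 31.4% called among all genes.

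Kinases of the pathway are counted beside the same 31.4% of all genes. Of 7 RAF, MEK and ERK pathway kinases 2 rose and 0 fell in the authors' deposited DESeq2 table, with MAPK3 (ERK1) at 0.49 ± 0.12 and ARAF at 0.32 ± 0.11. Of 11 p38 and JNK pathway kinases tested 4 rose and 1 fell in the authors' deposited DESeq2 table, with MAPK12 at 0.57 ± 0.12, MAPKAPK2, a kinase below p38, at 0.41 ± 0.09 and MAPK13 at 0.42 ± 0.11. Among 10 adaptors and RAS genes 3 were higher and 1 lower in the authors' deposited DESeq2 table, with the phosphatase PTPN11 at 0.42 ± 0.05, NRAS at 0.35 ± 0.09 and the adaptor SHC1 at -0.51 ± 0.10.

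Paralogues and other inhibitors split as well. Of 6 other MAP kinase phosphatases tested, DUSP3 at 0.72 ± 0.07 and DUSP8 at 1.62 ± 0.21 rose and 0 fell in the authors' deposited DESeq2 table, and DUSP7 at 0.71 ± 0.38 was not called (adjusted p = 0.146). SPRY1 fell by 1.26 ± 0.17 in the authors' deposited DESeq2 table. SPRED3 rose by 1.61 ± 0.44 and SPRY3 stood at -5.55 ± 1.89 in the authors' deposited DESeq2 table, but their mean normalized counts were 55.4 and 4.91. Of 12 other negative regulators of ERK signalling tested 3 rose and 3 fell in the authors' deposited DESeq2 table. The EGF receptor inhibitor ERRFI1 stood at -0.76 ± 0.07, the RAF inhibitor PEBP1 at 0.64 ± 0.08 and LRIG1, which promotes receptor degradation, at -0.36 ± 0.09 there.

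ERK target genes outside the family also went both ways, with 5 higher and 4 lower of 15 tested in the authors' deposited DESeq2 table and a median of 0.05. The other 6 of the 15 were not called. EGR1 at 2.62 ± 0.13 and FOS at 2.43 ± 0.23, both transcription factors, rose, while HMGA2, a chromatin protein, stood at -1.03 ± 0.08 in the authors' deposited table. In the 9 lists together 78 of 88 genes were tested in the authors' deposited DESeq2 table, with 25 higher and 16 lower, or 52.6%, beside 31.4% of all genes. The lists were chosen with earlier results of these data known, so no conclusion is drawn from that contrast. Of their 301 m6A regions 192 had an FDR, and 4 were called higher and 11 lower in the authors' deposited table, or 7.81%, beside 8.95% of all regions. Of the called regions, 9 lie in 8 of the genes named above: 2 in ERRFI1 and 1 each in EGR1, FGFR3, INSR, MAPK12, MAPKAPK2, NRAS and PEBP1. Those of FGFR3 and MAPK12 were higher and the other 7 lower, between -0.77 in ERRFI1 and 0.37 in MAPK12 in the authors' deposited table. Region 1 of EGR1 stood at -0.54 with 1115 IP and 1264 input reads after toosendanin, against 315 IP and 261 input reads in control (authors' deposited table, counting error 0.13, FDR = 0.00164).

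**Figure D5:**
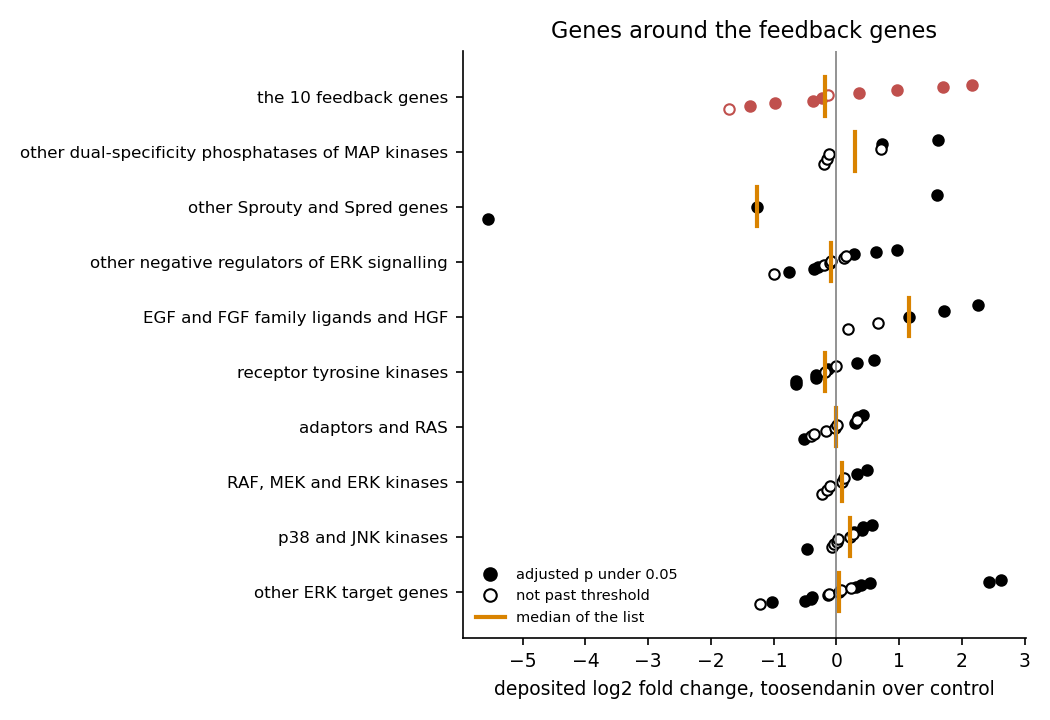
Deposited log2 fold change, toosendanin over control (horizontal axis), for the 10 feedback genes (red) and 9 lists of neighbouring genes (black). Filled points have an adjusted p under 0.05, open points do not, and orange bars mark list medians. The ligand list has the highest median, 1.16 over 5 tested genes. The other Sprouty and Spred genes have the lowest, -1.26 over 3 tested genes, which is the value of SPRY1.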

How the data were processed

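Expression and m6A of HepG2 cells were taken from 2 tables of the authors. The expression table has the columns of DESeq2, per the file headers: the authors' mean normalized count (a signal over all compared libraries), log2 fold changes and their standard errors, a Wald statistic (a score), p-values and adjusted p-values. In the m6A table, per the file headers, the authors give read counts added up within each condition, and a log2 fold change, p-value and FDR per region. The submitters' processing notes name HISAT2, StringTie and DESeq, and libraries carried molecular identifiers per the labels' protocols. Genome build, annotation, strand setting, region caller and the libraries compared for expression were not stated.

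The deposited tests and their Benjamini-Hochberg adjustment over the whole tables were used, since a fit per library could not be made. Counting errors are Poisson errors of the sums, which equal the error behind the deposited m6A p-values within 1% in 99.5% of 45805 regions. A positive value was read as higher after toosendanin: 89.0% of 7947 genes in the upper 50% of means had the same sign in summed inputs. Reads over regions may be counted in more than 1 region. The members, lists and tests were chosen with earlier results of these data known. From each list up to 3 genes with the smallest adjusted p were named, and of the members all called regions and the most read one. From the lists, 2 genes are not reported here. Further regions and overlapping or pseudogene transcripts were named after their values were seen. Alternatives were stricter thresholds, other adjustments and scalings, a widened m6A statistic and filters on reads or enrichment. An m6A statistic of the same form was also run on simulated sums that held counting error only. Those sums hold no spread between libraries, so that run cannot show how the calls fare under such spread. Python 3.11.15, numpy 2.4.6, pandas 2.3.3, scipy 1.17.1 and matplotlib were used.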

Additional observations from a re-analysis of the deposited data

How the results depend on the processing

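The alternatives for expression reuse the deposited log2 fold change, or shift it by the median of all genes (-0.00023), so they bear on calls and not on direction. At an adjusted p under 0.01, SPRED1 (-0.37) and SPRED2 (-0.23) were no longer called and 2 genes were lower. With at least 2-fold asked for, DUSP5 (0.97), DUSP16 (0.37), SPRY4 (-0.98), SPRED1 (-0.37) and SPRED2 (-0.23) were no longer called, which left 2 higher and 1 lower. Among the upper 50% of means 2 were higher, since DUSP5 and DUSP10 lie below that limit. For m6A, region 2 of DUSP16 was not called at an FDR under 0.01 (-0.19), after centring on all regions (-0.15), after scaling to the totals (-0.10) or with the widened statistic (-0.19). Region 5 of DUSP16 (0.51) was not called at an FDR under 0.01, with the widened statistic, among regions with at least 10 reads in each sum, or with adjustment over all p-values, which was added after seeing the data. Region 2 of SPRED1 (-1.38) was not called with the widened statistic. The uncalled values of SPRY2 region 3 and SPRY4 region 5 changed sign, to 0.053 and 0.010 after centring and to 0.098 and 0.056 after scaling to the totals; both lie within counting error of 0. Regions called higher came to 0 at an FDR under 0.01, with the widened statistic, with at least 10 reads, among enriched regions only and over all p-values. Regions called lower came to 1 at an FDR under 0.01, after centring, after scaling and among enriched regions, and to 0 with the widened statistic. The filter for enriched regions asked for at least 1.5-fold enrichment, a stricter rule than lying above the level of the totals. It held 4 of the 46 regions, and of the called regions only region 2 of DUSP16 was among them. Region 2 of SPRED1 and region 5 of DUSP16 were left out by that filter, so it cannot show whether their calls are stable. No paired analysis was possible because the files used here hold no values per library, and for the same reason the replicate block and leaving out each replicate were not run. Depth limits DUSP4, DUSP10 and the less read regions.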

Other observations

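Beyond the genes above, 11 further genes named DUSP followed by a number were listed, a group formed after the values were seen. Of 7 with an adjusted p, 2 rose, 1 fell and 4 were not called in the authors' deposited DESeq2 table. DUSP13 stood at 1.5 ± 0.34 and DUSP15 at 2.05 ± 0.68, both atypical dual-specificity phosphatases, and DUSP12, another atypical member, at -0.70 ± 0.19 in the authors' deposited table. The mean normalized counts of DUSP13 and DUSP15 were 114 and 21.1, and 4 of the 11 genes, DUSP21, DUSP23, DUSP26 and DUSP27, had a mean of 0 in the authors' deposited table. Over all 24 such DUSP genes, 19 were tested, and 8 rose and 2 fell in the authors' deposited DESeq2 table, the falls being those of DUSP6 and DUSP12. These 24 include the DUSP genes already counted among the members and the lists. Both counts stand beside 15.7% higher and 15.7% lower among all 16552 genes tested, and no test of the group was made.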
